A study of Mus musculus with 11 samples.

Results

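Expression of 10 genes for heat shock proteins and their cochaperones was measured in mouse aortic valves after wire injury or sham surgery, in aging and in young animals. The genes were Hspa1a, Hspa1b, Hspa8, Dnajb1, Hsph1, Bag3, Hsp90aa1, Hspb1, Hspd1 and Hspe1. They were taken by gene symbol from the deposited table of raw counts, which holds 46983 genes, and all 10 passed the filter on low counts. The 11 libraries were 2 aging injured, 3 aging sham, 3 young injured and 3 young sham, each made from the valve of 1 wild type mouse, with no transgene or drug in any group. Aging mice were 16 to 18 months old and young mice 3 to 4 months. In the injured groups the endothelium of the valve was damaged with a wire in the living animal, the sham groups had the control operation, and all valves were collected 48 hours after surgery. Sex and strain are not given in the labels used here.

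Heat shock proteins are chaperones that bind unfolded or newly made proteins, prevent their aggregation and help them fold or move to degradation. HSP70 proteins work in cycles of ATP hydrolysis, in which J-domain proteins such as DNAJB1 stimulate the ATPase and nucleotide exchange factors such as HSPH1 and BAG3 release the client protein. Transcription of the inducible members is driven by heat shock factor 1, which binds arrays of short inverted repeats called heat shock elements. Small heat shock proteins such as HSPB1 are abundant in muscle, and BAG3 is known for its part in the turnover of damaged proteins in heart and skeletal muscle.

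Totals ranged between 27124000 and 36353474 counts per library, mitochondrial genes took 5.10% to 13.78% of them, and the number of genes with counts was lowest in young sham 1 (18641), aging injured 1 (18642) and aging injured 2 (19015), against 20411 to 22533 in the other libraries. Young sham 1 and both aging injured libraries carry consecutive column numbers in the deposited counts, after those of the other libraries used. What these numbers stand for is not given. Both aging injured libraries are among them, so in that group's contrasts the condition and anything tied to these numbers cannot be told apart. Levels are given as counts per 1000000 counts (CPM) after scaling by the trimmed mean of M values. Fibroblast and interstitial markers of the valve were present in every group, and so were cardiomyocyte markers. The summed level of 12 cardiomyocyte genes was 11950 to 14079 CPM in aging injured, 7653 to 20819 CPM in aging sham, 7838 to 35106 CPM in young injured and 20203 to 34890 CPM in young sham libraries. The summed level of 4 smooth muscle genes was 14312 to 17255 CPM in aging injured, 17181 to 20992 CPM in aging sham, 4794 to 11545 CPM in young injured and 6130 to 15420 CPM in young sham libraries. In whole valves, fewer cells of a type and less RNA per cell cannot be told apart.

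Promoter sequence was at hand for 8 of the 10 genes in RefSeq (GRCm38.p6), as windows of 250 bases before and 50 after each start site. The windows were searched on both strands for the letters of a heat shock element, either 2 units (GAANNTTC or TTCNNGAA) or 3 units (the same letters followed, after NN, by a further GAA or TTC in turn), where each 3-unit match also contains 2-unit matches. The 3-unit pattern was present in 198 of 32851 promoters (0.603%) and in 4 of the 11 promoters listed for the 8 genes. These were that of Hspe1, both of Hsph1 and 1 of 2 of Hspd1. The matches of Hspe1 and Hspd1 were the same bases read on opposite strands, and the 2 Hsph1 windows overlapped and shared their match. Counted by gene the 3-unit pattern was in 0.662% of genes and in 3 of the 8. The 2-unit pattern was present in 15.1% of promoters and in 8 of these 11. Counted by gene it was in 17.0% of genes and in 7 of the 8, Dnajb1 being the one without it. The promoters below are those of the pair with the widest range of levels, Hspa1a and Hspa1b, and of Hspb1, given as the 150 bases before the start site, 5′ to 3′ on the strand of the gene, with 2-unit matches in capitals. Their coordinates are chr17:34972157-34972306 (minus strand) for Hspa1a, chr17:34959239-34959388 (minus strand) for Hspa1b and chr5:135887769-135887918 (plus strand) for Hspb1.
Hspa1a: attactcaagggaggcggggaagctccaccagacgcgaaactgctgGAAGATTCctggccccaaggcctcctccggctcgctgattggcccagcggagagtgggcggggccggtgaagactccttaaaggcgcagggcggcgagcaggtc
Hspa1b: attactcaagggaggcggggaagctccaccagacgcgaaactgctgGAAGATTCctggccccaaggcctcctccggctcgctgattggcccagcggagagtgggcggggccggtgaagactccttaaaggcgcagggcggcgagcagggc
Hspb1: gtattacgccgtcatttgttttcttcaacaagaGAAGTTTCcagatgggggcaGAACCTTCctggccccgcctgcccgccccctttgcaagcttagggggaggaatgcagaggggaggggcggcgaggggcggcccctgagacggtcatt
Over the whole 300-base window the Hspa1a and Hspa1b promoters were 98.67% identical. They differed at 4 positions, C44T, T47C, T249G and C276T, with the Hspa1a base first and positions counted from 1 at the 5′ end of the window. The single 2-unit match of the pair lay at the same place in both, at bases -104 to -97 from the start site.

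Hspe1 and Hspd1 are neighbours transcribed in opposite directions, and the gene models of the deposited table overlap by 112 bases. The stretch shown holds 2 overlapping 3-unit matches, and is shown because it lies in a promoter window of both genes. It is given with 6 bases on either side, on the plus strand of chr1:55088053-55088082, with the 18 bases of the matches in capitals, which lie 89 to 72 bases before the Hspe1 start and inside the Hspd1 gene model, within an annotated first exon of 1 Hspd1 transcript.
Hspe1 and Hspd1: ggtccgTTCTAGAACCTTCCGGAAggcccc

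Hspa1a and Hspa1b (chr17:34969190-34972156 and chr17:34956436-34959238, mm10) encode the inducible HSP70 and are near-identical copies 9951 bases apart. Hspa1a had 26.3 and 38.5 CPM in aging injured libraries, 49.6, 89.7 and 41.0 CPM in aging sham, 96.6, 394.6 and 65.9 CPM in young injured, and 1343, 600.1 and 152 CPM in young sham libraries. Hspa1b had 29.4 and 58.7 CPM in aging injured libraries, 63.5, 108.9 and 44.1 CPM in aging sham, 125, 527 and 101.5 CPM in young injured, and 1796.5, 761 and 229.9 CPM in young sham libraries. For both copies the 5 aging libraries were below the 6 young ones, except that aging sham 2 exceeded young injured 3.

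Reads of the 2 copies cannot be assigned with certainty, so their counts were also added. The ratio of Hspa1b to Hspa1a counts stayed between 1.08 and 1.54 in the 11 libraries. The summed level was 55.8 and 97.2 CPM in aging injured, 113, 199 and 85.1 CPM in aging sham, 222, 921 and 167 CPM in young injured, and 3139.9, 1361.5 and 382 CPM in young sham libraries. The highest library stood 56.3-fold above the lowest, and within the young sham group alone the highest was 8.22-fold above the lowest.

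**Figure D1:**
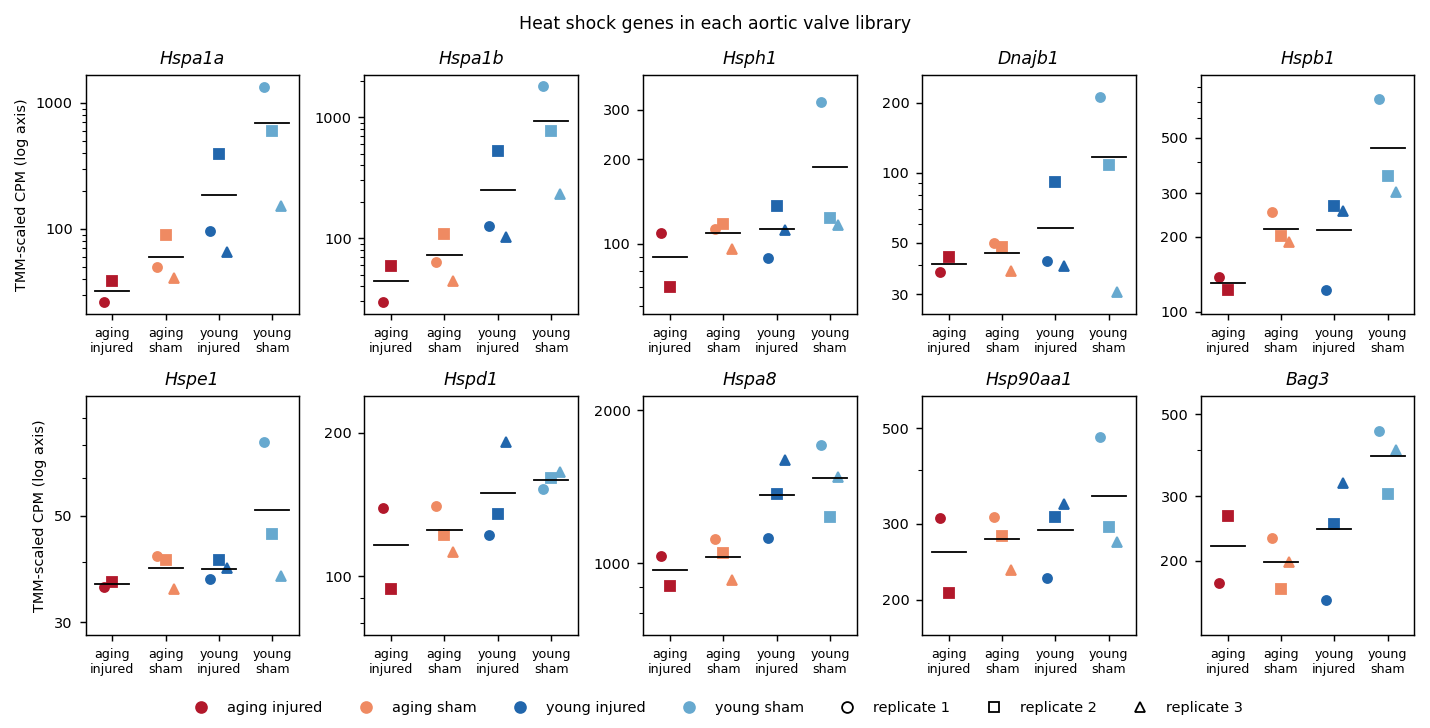
TMM-scaled CPM (log axis) of the 10 heat shock genes in each of the 11 libraries, with groups along the horizontal axis, 1 marker per library, marker shape for the replicate and a bar at the mean of the group. Young sham 1 is the highest library for 9 of the 10 genes, and Hspa1a and Hspa1b span a far wider range than Hspa8, Hspd1 or Hspe1.

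Hspa8 (chr9:40800984-40805200, mm10) encodes HSC70, the constitutive HSP70. It had 1034 and 903 CPM in aging injured libraries, 1115, 1046 and 926 CPM in aging sham, 1124, 1367 and 1595 CPM in young injured, and 1707, 1231 and 1478 CPM in young sham libraries. The aging libraries, at 903 to 1115 CPM, lay below the young ones, at 1124 to 1707 CPM, in both kinds of surgery. The gene hosts small nucleolar RNA genes whose own counts, 124 to 448 summed over the libraries, were few beside its 437403.

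Among the cochaperones of HSP70, Dnajb1 (chr8:83608175-83611902, mm10), the J-domain partner of the inducible form, had 37.3 and 43.5 CPM in aging injured libraries, 49.9, 48.1 and 37.7 CPM in aging sham, 41.8, 91.2 and 39.8 CPM in young injured, and 211, 107.8 and 30.8 CPM in young sham libraries. Young sham libraries held both the highest and the lowest Dnajb1 value of the series, so that the groups overlapped. Hsph1 (chr5:149614287-149636376, mm10), an HSP110 nucleotide exchange factor, had 109.1 and 70.3 CPM in aging injured libraries, 113, 118 and 96.0 CPM in aging sham, 88.9, 137 and 112 CPM in young injured, and 319.9, 124 and 117 CPM in young sham libraries. Outside young sham 1, Hsph1 lay between 70.3 and 137 CPM in the libraries of every group.

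Bag3 (chr7:128523616-128546981, mm10), a nucleotide exchange factor with a part in selective autophagy, had 174 and 265 CPM in aging injured libraries, 230.2, 168 and 199 CPM in aging sham, 157, 251 and 326 CPM in young injured, and 449, 304 and 399.8 CPM in young sham libraries. The 3 aging sham libraries were below the 3 young sham libraries, while injured libraries of both ages overlapped. Hsp90aa1 (chr12:110690605-110702728, mm10), the inducible cytosolic HSP90, had 309 and 207 CPM in aging injured libraries, 312, 281 and 235 CPM in aging sham, 225, 311 and 334 CPM in young injured, and 476, 295 and 273 CPM in young sham libraries, and its groups overlapped in each comparison.

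Hspb1 (chr5:135887919-135889563, mm10), the small heat shock protein HSP25, had 138 and 123 CPM in aging injured libraries, 252, 202 and 190.4 CPM in aging sham, 122, 265 and 253 CPM in young injured, and 719, 350.4 and 302 CPM in young sham libraries. Injured libraries were below sham libraries at each age without overlap. Aging sham libraries were also below young sham libraries.

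Hspd1 and Hspe1 (chr1:55077835-55088243 and chr1:55088132-55091307, mm10) encode HSP60 and HSP10, which together form the folding chamber of the mitochondrial matrix. Hspd1 had 139 and 94.1 CPM in aging injured libraries, 140.4, 122 and 113 CPM in aging sham, 122, 135 and 191 CPM in young injured, and 153, 161 and 165 CPM in young sham libraries. Hspe1 had 35.5 and 36.4 CPM in aging injured libraries, 41.1, 40.3 and 35.2 CPM in aging sham, 36.8, 40.3 and 38.9 CPM in young injured, and 71.1, 45.7 and 37.4 CPM in young sham libraries. Young sham 1 had the highest Hspe1 of the series, but the lowest Hspd1 of the young sham group.

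Young sham 1 held the highest value of 9 of the 10 genes, the exception being Hspd1, which was highest in young injured 3. The summed level of the 10 genes was 1839 to 2033 CPM in aging injured, 1917 to 2368 CPM in aging sham, 2139 to 3519 CPM in young injured and 3184.5 to 3981 CPM in the other young sham libraries, and 7246.5 CPM in young sham 1. Young sham 1 was also the library with the fewest genes with counts (18641). Aging injured 1, with 18642, had the lowest Hspa1a and Hspa1b of the series. The spread within groups placed Hspa1a and Hspa1b 71st and 82nd among 12019 genes with a mean of at least 5 CPM, with SDs of 1.17 and 1.14 on the log2 scale. Dnajb1 was 277th with an SD of 0.84, Hspa8 was 7262nd with 0.21, and the median gene had 0.24.

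Per unit of gene length, in the deposited RPKM values (reads scaled by gene length and library depth), the order by median over the 11 libraries was Hspa8 at 311.5, Hspb1 at 269, Bag3 at 111, Hsp90aa1 at 83.2, Hspd1 at 58.8, Hspa1b at 43.7, Hspa1a at 34.0, Hspe1 at 28.9, Dnajb1 at 21.3 and Hsph1 at 17.3 RPKM. Neighbours in this order overlapped in their ranges over libraries in each case. Hspa8 did not overlap with Bag3, since its lowest library, at 235 RPKM, was above the highest of Bag3, at 187 RPKM. The place of the inducible HSP70 copies depended on the group. By group mean RPKM, Hspa1b and Hspa1a were the 8th and 10th of the 10 genes in aging injured, the 7th and 8th in aging sham, the 4th and 6th in young injured and the 3rd and 4th in young sham libraries.

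Injury was first compared with sham surgery in young valves. All 10 genes had negative log2 fold changes, with a median of -0.69, beside a median of 0.01 over all genes tested. The summed HSP70 pair averaged 437 ± 421 CPM in young injured and 1628 ± 1398 CPM in young sham valves (SD, n = 3 each), a log2 fold change of -1.90 ± 0.76 (SE; edgeR quasi-likelihood test, adjusted p = 0.460). Hspb1 averaged 214 ± 79.4 CPM in young injured and 457 ± 228 CPM in young sham valves (SD, n = 3 each), a log2 fold change of -1.10 ± 0.35 (SE; edgeR adjusted p = 0.287). Bag3 and Dnajb1 had log2 fold changes of -0.65 ± 0.27 and -1.02 ± 0.53 (SE; edgeR adjusted p = 0.472 and 0.608), and Hspa8 and Hspd1 stood at -0.11 ± 0.18 and -0.09 ± 0.19. None of these differences had an adjusted p under 0.1 by that test.

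With a call set at an adjusted p under 0.1 and more than 2-fold, edgeR called 0 of the 10 genes in the young injury contrast, where 81 of 19366 genes (0.418%) were called. At an unadjusted p under 0.05 there were 4, Hspb1, Hspa1a, Hspa1b and Bag3, beside 9.19% of all genes. DESeq2 called 1, Hspb1, at -1.11 ± 0.35 (SE; adjusted p = 0.0514), limma-voom called 0 and limma-voom with library quality weights called 0. Over the whole table DESeq2 called 268 genes for this contrast, limma-voom 56 and quality weights 376. Only Hspb1 had all injured libraries below all sham libraries, which 5.07% of genes did. The summed pair stood at -0.997 without young sham 1 and at -3.08 without young injured 2. Without young sham 1, the median over the 10 genes was -0.20. In the same contrast all 12 cardiomyocyte markers had negative log2 fold changes with a median of -0.77, and 0 of them were called. Fibroblast and interstitial markers had a median of 0.54 and 2 of 8, Vcan and Col3a1, were called higher, at summed levels of 19864 to 24277 CPM in young injured and 14378 to 17712 CPM in young sham libraries. The 7 monocyte and macrophage markers, 1 of them listed under 2 identifiers, were positive in 8 of 8 entries with a median of 0.88, 0 of them called, at summed levels of 472 to 868 CPM in young injured and 420.3 to 578 CPM in young sham libraries. The part of these 2 lists in the result was not tested. With the cardiomyocyte score as a covariate, the summed pair stood at -2.73 ± 0.72, Hspb1 at -1.03 ± 0.37 and Bag3 at -0.42 ± 0.25 (SE). Hspd1 turned to 0.13 ± 0.16 with that covariate. With the number of detected genes as a covariate the summed pair stood at -1.38 ± 0.74 (SE).

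**Figure D2:**
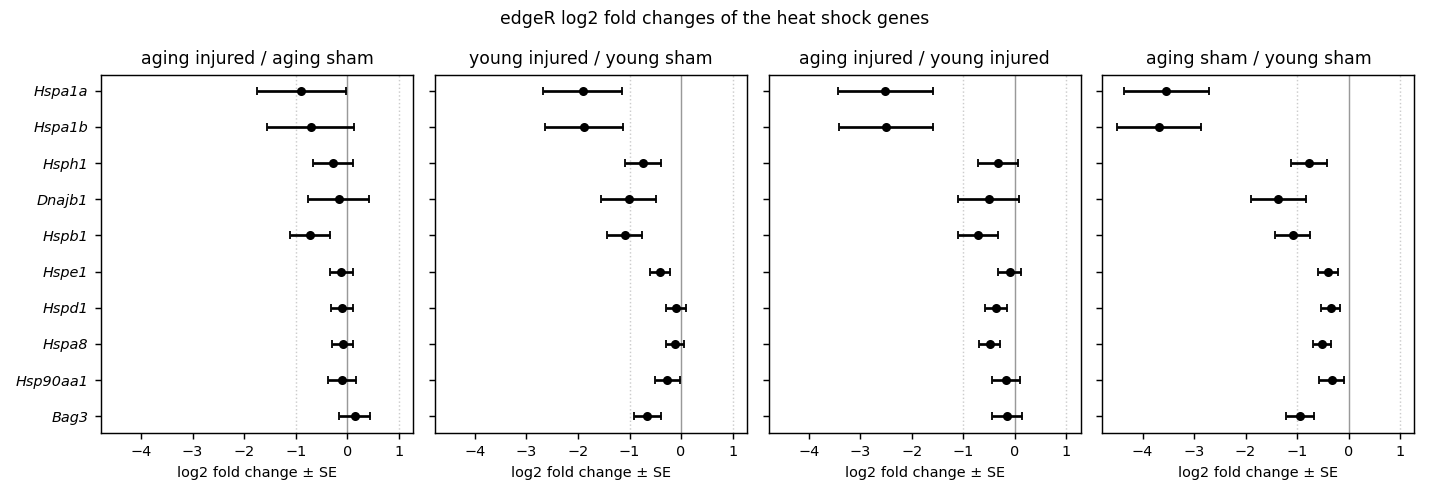
Log2 fold changes (points) with SE (bars) of the 10 heat shock genes from the edgeR fit, in 4 contrasts with the numerator named first in each panel, solid lines at 0 and dotted lines at a 2-fold difference. Nearly all points lie left of 0, Bag3 after injury in aging valves being the exception, and Hspa1a and Hspa1b lie farthest left with the widest bars.

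In aging valves the same comparison rested on 2 injured and 3 sham libraries. The summed pair averaged 76.5 ± 29.3 CPM in aging injured (SD, n = 2) and 132 ± 59.1 CPM in aging sham valves (SD, n = 3), a log2 fold change of -0.79 ± 0.84 (SE; edgeR adjusted p = 0.866). Hspb1 averaged 130.7 ± 11.0 CPM in aging injured (SD, n = 2) and 215 ± 33.0 CPM in aging sham valves (SD, n = 3), at -0.72 ± 0.39 (SE; edgeR adjusted p = 0.636). The other genes lay between -0.28 for Hsph1 and 0.14 for Bag3, with Hspa1a and Hspa1b taken as the pair. The median of the 10 genes was -0.14, beside -0.01 over all genes. EdgeR called 0 of the 10, with 0 at an unadjusted p under 0.05 beside 8.83% of all genes, and 0 of 19366 genes (0.0%). DESeq2 and limma-voom with or without quality weights also called 0 of the 10. In Hspa1a and Hspb1 both injured libraries were below all sham libraries, which 16.7% of genes showed. The cardiomyocyte markers had a median of 0.18 here. With the number of detected genes as a covariate the summed pair stood at -2.34 ± 1.29 (SE) and the median of the 10 genes at -1.08, against -0.32 for injury in young valves with that covariate. The aging injured libraries had 18642 and 19015 detected genes and the aging sham libraries 22337 to 22533. The groups did not overlap in this covariate, so these adjusted values are extrapolated.

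Age was compared within each kind of surgery. The injury and age contrasts share libraries, so they are not independent of each other. In sham valves the summed pair averaged 132 ± 59.1 CPM in aging and 1628 ± 1398 CPM in young mice (SD, n = 3 each), a log2 fold change of -3.62 ± 0.82 (SE; edgeR adjusted p = 0.232). Bag3 averaged 199 ± 31.0 CPM in aging sham and 385 ± 73.7 CPM in young sham valves (SD, n = 3 each), at -0.95 ± 0.27 (SE; edgeR adjusted p = 0.368). Hspb1 stood at -1.09 ± 0.35, Dnajb1 at -1.37 ± 0.53, Hspa8 at -0.52 ± 0.18 and Hsph1 at -0.78 ± 0.35 (SE; edgeR adjusted p = 0.423, 0.504, 0.449 and 0.537). All 10 genes were negative, with a median of -0.86 beside 0.02 over all genes.

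EdgeR called 0 of the 10 genes for age in sham valves, where 5 of 19366 genes (0.0258%) were called, and 7 of the 10 had an unadjusted p under 0.05, beside 9.19% of all genes. The tools differed on this contrast. DESeq2 called 3, Hspa1a at -3.55 ± 0.88, Hspa1b at -3.70 ± 0.88 and Hspb1 at -1.10 ± 0.35 (SE; adjusted p = 0.0103, 0.00682 and 0.0852). Voom with library quality weights in limma called 2, Hspa1a at -3.04 ± 0.57 and Hspa1b at -3.23 ± 0.57 (SE; adjusted p = 0.0198 and 0.0159), and limma-voom without them called 0. Over the whole table DESeq2 called 200 genes for this contrast, quality weights 811 and limma-voom without them 2. Hspa1a and Hspa1b are near-identical copies, so their calls are not independent. Over the 22 alternatives the adjusted p of the summed pair ran between 0.00801 and 0.936, and its log2 fold change between -4.48 and -2.64. Over the same alternatives the adjusted p of Bag3, Hspd1 and Hspa8 ran from 0.0329, 0.0682 and 0.0714 up to 0.9999. None of these genes was called in any of them.

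Hspa1a, Hspa1b, Hspb1, Hspd1, Hspa8 and Bag3, 6 of the 10 genes, had all aging sham libraries below all young sham libraries, against 9.08% of genes. Without young sham 1 the summed pair stood at -2.72 and the median of the 10 genes at -0.50. In the same contrast 12 of 12 cardiomyocyte markers had negative log2 fold changes with a median of -1.25, 4 of 4 smooth muscle markers had positive ones with a median of 0.72, and 0 of either list were called. The part of the smooth muscle markers in the result was not tested. With the cardiomyocyte score as a covariate the summed pair stood at -4.48 ± 0.77, Hspb1 at -0.998 ± 0.40, Bag3 at -0.63 ± 0.26 and Hspd1 at -0.06 ± 0.17 (SE). With the number of detected genes as a covariate the summed pair stood at -2.64 ± 0.84 (SE), while Hsph1 and Hsp90aa1 turned to 0.16 and 0.12. The aging sham libraries (22337 to 22533 detected genes) did not overlap with the young sham ones (18641 to 22194), so these adjusted values are extrapolated.

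In injured valves the summed pair averaged 76.5 ± 29.3 CPM in aging mice (SD, n = 2) and 437 ± 421 CPM in young mice (SD, n = 3), a log2 fold change of -2.51 ± 0.91 (SE; edgeR adjusted p = 0.309). Hspa8 averaged 969 ± 92.9 CPM in aging injured (SD, n = 2) and 1362 ± 236 CPM in young injured valves (SD, n = 3), at -0.49 ± 0.20 (SE; edgeR adjusted p = 0.362). All 10 genes were again negative, with a median of -0.43 beside -0.04 over all genes. EdgeR called 0 of the 10, where 12 of 19366 genes (0.062%) were called, 3 had an unadjusted p under 0.05 beside 12.5% of all genes, and DESeq2 and limma-voom with or without quality weights called 0. Hspa1a, Hspa1b, Hspe1 and Hspa8, 4 of the 10, had both aging libraries below all young ones, which 14.5% of genes had. Young injured 2 moved the summed pair most, to -1.34 when it was left out. In this contrast 11 of 12 cardiomyocyte markers were negative with a median of -0.23, and 4 of 4 smooth muscle markers were positive with a median of 0.76, with 0 of either list called. With the cardiomyocyte score as a covariate the summed pair stood at -2.42 ± 0.75 (SE). With the number of detected genes as a covariate it stood at -3.60 ± 1.11 (SE) and the median of the 10 genes at -1.11. The aging injured libraries (18642 and 19015 detected genes) did not overlap with the young injured ones (21107 to 21979), so these adjusted values are extrapolated.

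**Figure D3:**
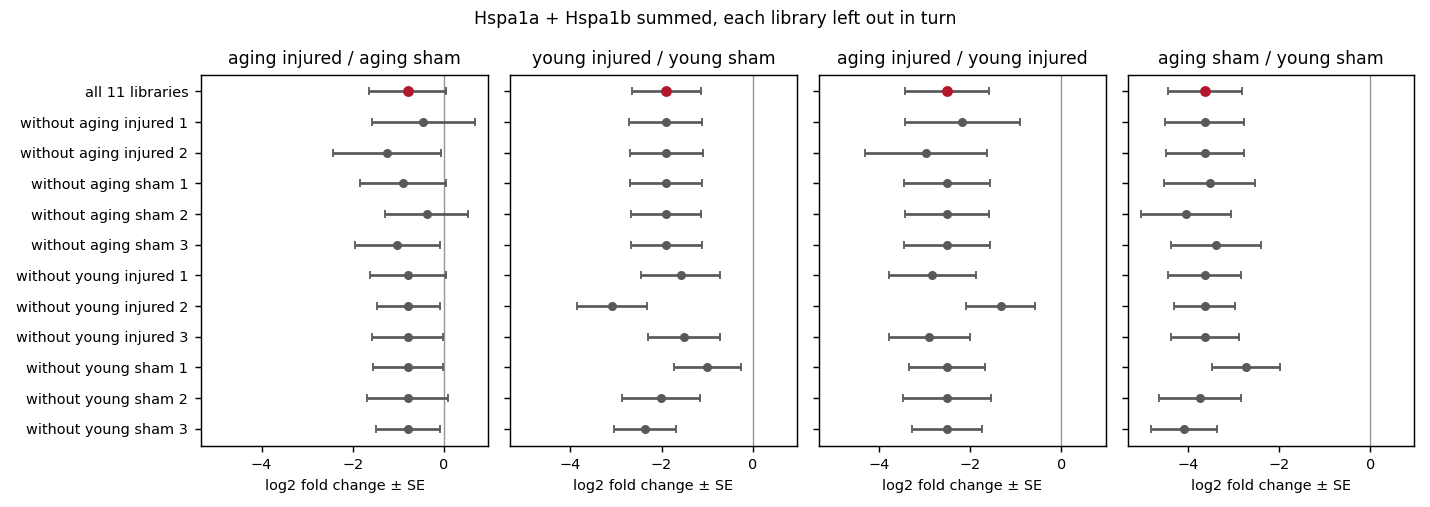
Log2 fold change with SE of Hspa1a and Hspa1b summed, with all 11 libraries (red, top row) and with each library left out in turn (grey), in 4 contrasts with the numerator named first. The points stay left of 0 throughout, between -3.08 and -0.997 for injury in young valves and between -4.09 and -2.72 for age in sham valves.

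The difference between the injury contrasts of the 2 ages was tested as an interaction. For the summed pair it was 1.11 ± 1.10 on the log2 scale (SE; edgeR adjusted p = 0.858), and 0 of the 10 genes and 0 of all genes (0.0%) were called by edgeR, with 0 of the 10 at an unadjusted p under 0.05, beside 7.86% of all genes. DESeq2 and limma-voom with or without quality weights also called 0 of the 10. For the 10 genes, a response to injury that differs with age was not detectable with these libraries. Over the whole table DESeq2 called 174 genes for the interaction, against 0 by edgeR. Averaged over age, injury gave -1.34 ± 0.57 for the summed pair and -0.91 ± 0.26 for Hspb1 (SE; edgeR adjusted p = 0.399 and 0.200), and edgeR called 0 of the 10 genes where 115 of 19366 (0.594%) were called, with 3 at an unadjusted p under 0.05 beside 11.5% of all genes. DESeq2 and limma-voom with or without quality weights called 0 of the 10 for the average. Over the 21 alternatives the adjusted p of Hspb1 ran between 0.0219 and 0.406 for the average. The lowest was that of DESeq2, at -0.91 ± 0.26 (SE), under 2-fold and so not called.

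Levels of the other 8 genes were compared with those of the summed HSP70 pair, and levels of all with a score of cardiomyocyte markers (the mean of their log2 CPM), in 17 relations over the 11 libraries. On the log2 scale Dnajb1 followed the pair with Pearson r = 0.865 and Spearman rho = 0.627 (permutation p = 0.00133 and 0.0442, adjusted over 17 relations 0.00765 and 0.107). Without young sham 1 and young sham 2, the libraries farthest from the median of the pair, r was 0.574 (exact permutation p = 0.115). For Hspb1, Hspe1, Hsph1 and Hspa8, r was 0.824, 0.807, 0.773 and 0.708 (adjusted permutation p = 0.00765, 0.00765, 0.00863 and 0.0377), with rho of 0.745, 0.755, 0.773 and 0.773 (adjusted permutation p = 0.0328, 0.0328, 0.0321 and 0.0321).

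Bag3, Hsp90aa1 and Hspd1 had r of 0.637, 0.601 and 0.410 with the pair (adjusted permutation p = 0.0768, 0.0933 and 0.297). Without those young sham libraries r lay between 0.204 for Hsp90aa1 and 0.642 for Hspa8, so none of the 8 relations held without them at a p of 0.05 (exact permutation p between 0.0607 and 0.604). Taken as deviations from the means of their groups, Dnajb1 kept r = 0.933 with the pair, Hspe1 0.758, Hsph1 0.643 and Hspb1 0.597, while Bag3 had 0.07, Hspa8 0.11 and Hspd1 -0.37.

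With the cardiomyocyte score, Bag3 and Hspd1 had the highest correlations of the 10 genes. Bag3 had r = 0.779 and rho = 0.773 with the score (permutation p = 0.00621 and 0.00733, adjusted 0.0176 and 0.0321), and r = 0.690 without young sham 3 and young injured 3 (exact permutation p = 0.0379). Hspd1 had r = 0.763 and rho = 0.836 (permutation p = 0.00591 and 0.00225, adjusted 0.0176 and 0.0321), and r = 0.593 without those libraries (exact permutation p = 0.0907). The summed pair had r = 0.251 and rho = 0.145 with the score (permutation p = 0.454 and 0.674, adjusted 0.551 and 0.713). As deviations from the means of their groups, r with the score was 0.763 for Hspd1, 0.611 for Bag3 and -0.53 for the pair. The difference between these r values was not tested.

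**Figure D4:**
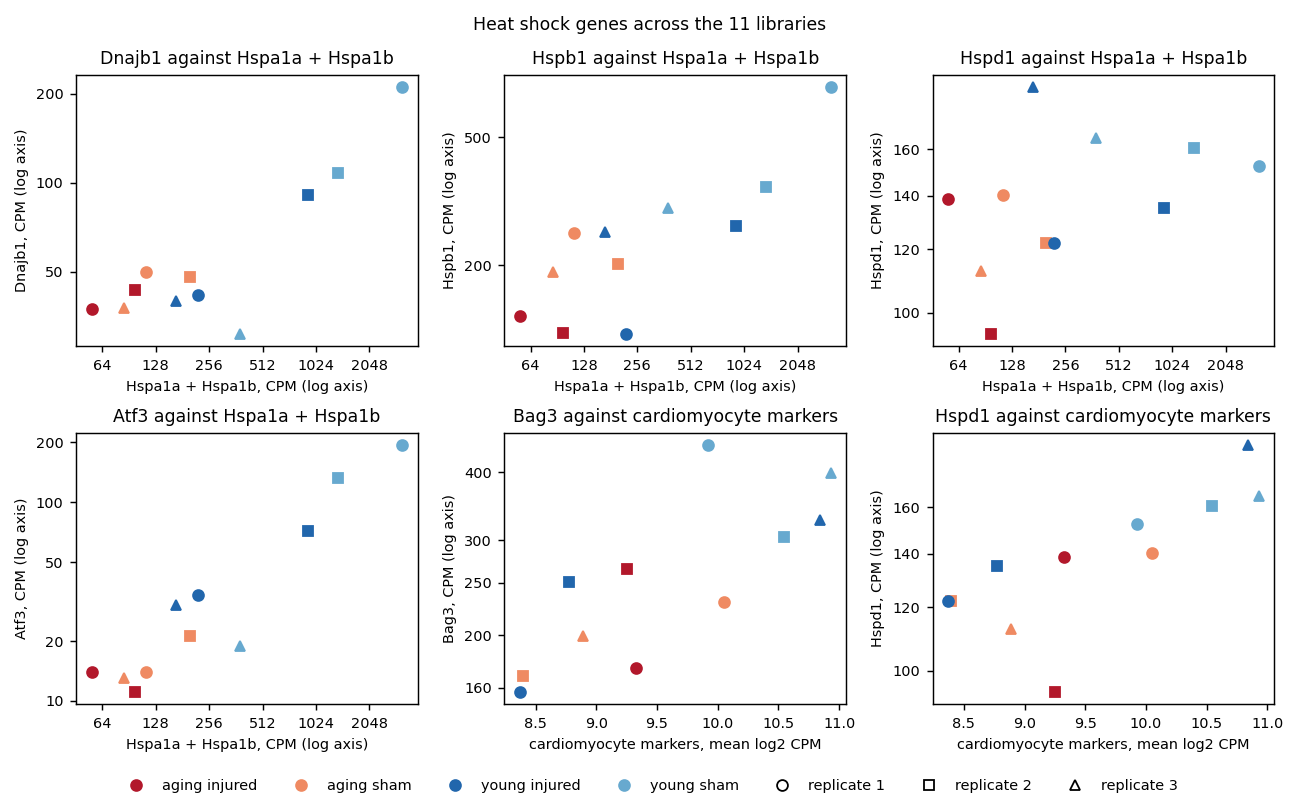
Each panel plots 2 measures over the 11 libraries, coloured by group with marker shape for the replicate: Dnajb1, Hspb1, Hspd1 and Atf3 (CPM, log axis) against Hspa1a and Hspa1b summed (CPM, log axis), and Bag3 and Hspd1 (CPM, log axis) against the cardiomyocyte score (mean log2 CPM). Young sham 1, young sham 2 and young injured 2 lie highest for Dnajb1 and Atf3 at the right, while Hspd1 is unordered against the pair and higher where the cardiomyocyte score is higher.

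Among the genes whose levels over the 11 libraries were most like those of the summed pair, out of 12009 genes outside the 10, were Atf3 (r = 0.944), Rasl11b (0.936), Jun (0.922), Oplah (0.912) and Fosb (0.9004). They were chosen for this likeness, and the libraries share depth and composition across genes, so the values are a description. Atf3, Jun and Fosb are transcription factors of the immediate early response. Atf3 had 14.0 and 11.1 CPM in aging injured libraries, 14.0, 21.1 and 13.1 CPM in aging sham, 34.0, 71.4 and 30.3 CPM in young injured, and 194, 132 and 19.0 CPM in young sham libraries. Like the HSP70 pair, Atf3 was highest in young sham 1, young sham 2 and young injured 2.

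Other chaperones, their regulators and immediate early genes were read from 10 lists of 91 genes, and edgeR called 0 of them in any of the contrasts. The 13 immediate early genes had negative log2 fold changes for age in sham valves in 13 of 13, with a median of -0.83, and 10 had an unadjusted p under 0.05, beside 9.19% of all genes. For age in injured valves 13 of 13 were negative, with a median of -0.64. The list holds Atf3, Jun and Fosb, named above for their likeness to the HSP70 pair in these same libraries. It was also chosen with earlier results of these data known, so its counts are a description. The 6 other small heat shock proteins were negative in 6 of 6 for age in sham valves, with a median of -0.58, and 5 of 6 for injury in young valves, with a median of -0.45. For injury in aging valves 5 of these 6 were positive, with a median of 0.24. Hspb7, a heart and muscle member, had 1538 and 1718.5 CPM in aging injured libraries, 1703, 1171 and 1258 CPM in aging sham, 787, 888 and 2431 CPM in young injured, and 1929.5, 1942 and 2322 CPM in young sham libraries. Its groups overlapped for injury in young valves. For age in sham valves its aging libraries were below its young ones without overlap, as in 9.08% of all genes.

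The 7 other mitochondrial chaperones and proteases were negative in 7 of 7 for age in sham valves, with a median of -0.32. For injury in young valves the medians of the cytosolic lists were 0.13 for 8 other HSP70 and HSP110 genes, -0.03 for 15 genes of HSP90 and its cochaperones, -0.12 for 10 J-domain proteins, -0.08 for 6 BAG proteins and other exchange factors, 0.12 for 8 subunits of the TRiC chaperonin and 0.02 for 4 heat shock factors and regulators, beside 0.01 over all genes.

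Chaperones of the endoplasmic reticulum, which fold secreted proteins, differed from the 10 genes in sign for injury in young valves. There 14 of 14 had positive log2 fold changes, with a median of 0.57, and 11 had an unadjusted p under 0.05 beside 9.19% of all genes, while the 10 heat shock genes were all negative in the same contrast. The cytosolic lists differed in sign among themselves there. They ran from 8 of 8 positive for TRiC subunits to 5 of 6 negative for BAG proteins and other exchange factors. The disulfide isomerase Pdia6 had 167 and 144 CPM in aging injured libraries, 139, 133 and 131 CPM in aging sham, 158, 193 and 223 CPM in young injured, and 93.5, 89.4 and 134 CPM in young sham libraries. For injury in young valves its log2 fold change was 0.86 ± 0.18 (SE; edgeR adjusted p = 0.0909), under 2-fold and so not called. Other genes of the endoplasmic reticulum list also had an adjusted p under 0.1 there, but were under 2-fold. Among them was Pdia4, at 0.78 ± 0.12 (SE; edgeR adjusted p = 0.0264). For injury in aging valves the list had 7 of 14 positive and a median of 0.01. The interaction was negative in 14 of 14, with a median of -0.60, and 6 had an unadjusted p under 0.05 beside 7.86% of all genes. For age the list was positive in 13 of 14 in sham valves, with a median of 0.33, and negative in 13 of 14 in injured valves, with a median of -0.24, the same sign as the 10 genes.

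**Figure D5:**
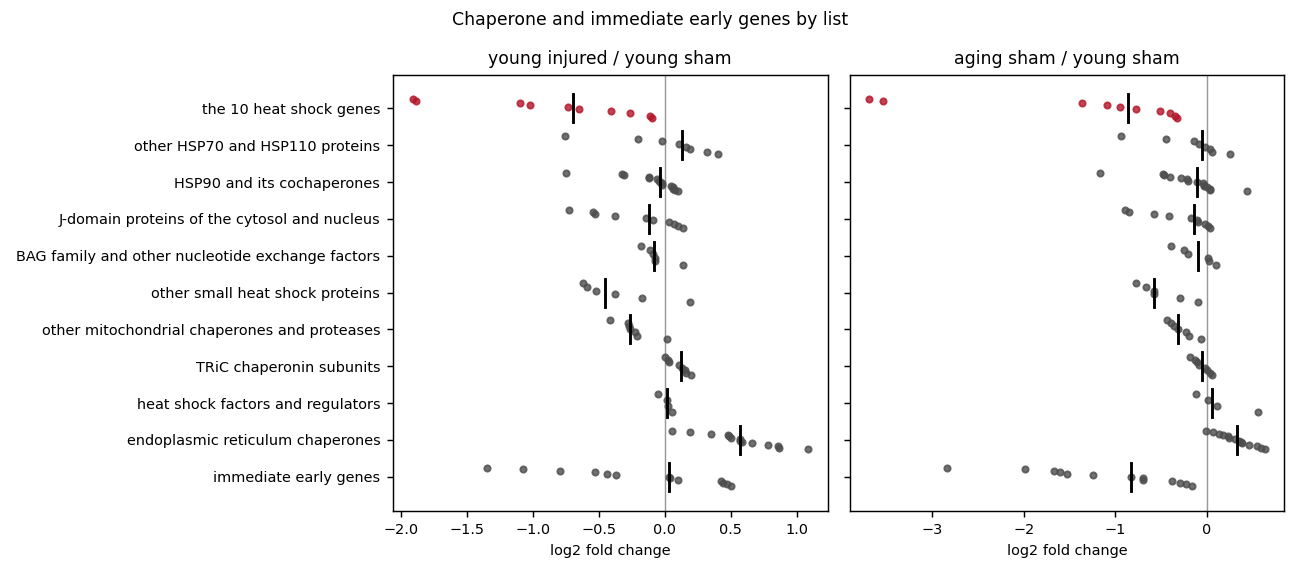
Log2 fold changes of single genes (points) and the list median (vertical bar) for the 10 heat shock genes (red) and 10 lists of other genes (grey), for injury in young valves (left) and age in sham valves (right), with a line at 0. The 10 heat shock genes all lie left of 0 in both panels, and the endoplasmic reticulum chaperones lie right of 0 for injury in young valves, with a median of 0.57.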

How the data were processed

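Valves were profiled by mRNA sequencing from 200 ng of total RNA with 150 nt paired-end reads, per the labels' protocols. Build mm10 and TopHat2 2.1.0 are named in the submitters' processing notes. How reads were counted, whether by strand, is not given in the sources used here. Values of overlapping or antisense genes (Hspe1 with Hspd1, Hspa1a with Gm20481) are therefore uncertain. The authors deposited raw counts for 46983 genes and RPKM values for 13526 genes. Of the library columns, 1 could not be tied to a sample and was not used.

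The raw counts were tested with edgeR 4.0.16 (R 4.3.3), with all 11 libraries in 1 fit of 4 group means, TMM scaling and the filterByExpr function (minimum count 10, 19366 genes left). The common biological coefficient of variation was 0.377. P-values were Benjamini-Hochberg adjusted over all genes, and a gene was called at an adjusted p under 0.1 and over 2-fold, as in the series' design text. SE was the absolute log2 fold change over the square root of F. RPKM values were used only to compare levels between genes. DESeq2 1.42.0 and limma 3.58.1 were alternatives, and the scripts were tested on simulated counts with known fold changes. Correlations were taken over log2 CPM. A small constant was added to the CPM of the 10 genes and of the pair. The cardiomyocyte score and the genes outside the 10 had prior count 2. Permutation p-values not named exact rested on 100000 permutations (Python 3.11.15, scipy 1.17.1).

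Each library came from its own mouse; in pairs of libraries of a group the chi-square statistic of the counts per degree of freedom was 20.9 to 228.4, so none was counted as a duplicate. The members, lists and tests were chosen with earlier results of these data known. All 10 members are named, with the 6 genes most like the HSP70 pair (1 of them is not reported here) and, from each list, at most 2 genes with the smallest p for injury averaged over age.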

Additional observations from a re-analysis of the deposited data

How the results depend on the processing

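The number of the 10 genes called was recomputed under 22 alternatives, 11 of which leave out 1 library. It stayed at 0 in all contrasts, except that DESeq2 called 1 for injury in young valves and 3 for age in sham valves, and limma-voom with library quality weights called 2 for age in sham valves. There the summed HSP70 pair passed the threshold at -3.64 (adjusted p = 0.00801) with DESeq2 and at -3.15 (adjusted p = 0.0176) with quality weights. Its interaction turned to -0.96 with the number of detected genes as a covariate. The aging injured and aging sham libraries did not overlap in that covariate, so this value is extrapolated. The causes were not tested.

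Counts of genes called over the whole table moved more. For injury in young valves (81) they were 139 with library totals alone, 268 with DESeq2, 376 with quality weights and 11 with only the 2 groups. Library totals alone moved the median of all genes there to 0.13. For injury in aging valves (0) they were 329 with DESeq2 and 1 with no filter. For age in injured valves (12) they were 7 with library totals, 599 with DESeq2, 1 with quality weights, 38 with no filter, 89 with the cardiomyocyte covariate, and 0 with the detected-genes covariate or only the 2 groups. For age in sham valves (5) they were 200 with DESeq2, 2 with limma-voom, 811 with quality weights, 14 with no filter, 2 with the cardiomyocyte and 0 with the detected-genes covariate, and 13 with only the 2 groups. DESeq2 called 174 for the interaction (0). For the average (115) they were 402 with DESeq2, 73 with limma-voom, 60 with quality weights, 71 with the cardiomyocyte and 3 with the detected-genes covariate.

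Same-numbered libraries did not deviate together, with r between -0.28 and 0.50 and 3 of 15 pairs over 0.1, so the numbers were not taken as pairs. With the replicate block, genes called were 4 for age in injured valves and 60 for the average, and 0 of the 10 genes were called.

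Leaving out each library in turn gave 16 to 447 genes called for injury in young valves, 0 to 261 for injury in aging valves, 3 to 429 for age in injured valves, 1 to 10 for age in sham valves and 38 to 284 for the average. The summed pair kept its direction in these fits, between -3.08 and -0.997, -1.25 and -0.38, -2.97 and -1.34, -4.09 and -2.72, 0.21 and 2.30 (the interaction), and -1.93 and -0.89 (the average).

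Of 1090 recomputed member values, 19 turned sign, all of them values that were not called. For injury in young valves Hspd1 turned to 0.0066 with library totals and 0.13 with the cardiomyocyte covariate, and Hspa8 and Hsp90aa1 to 0.0596 and 0.0131 with the detected-genes covariate. That covariate also turned Bag3 to -0.37 for injury in aging valves, and Hsph1 and Hsp90aa1 to 0.16 and 0.12 for age in sham valves. In both of these contrasts the groups did not overlap in the covariate, so the adjusted values are extrapolated. With a library left out, values ran between -0.31 and 0.0333 for Hspd1, -0.24 and 0.0084 for Hspa8 and -0.41 and 0.0298 for Hsp90aa1 (injury in young valves). They ran between -0.42 and 0.15 for Hspd1, -0.19 and 0.004 for Hspa8, -0.42 and 0.16 for Hsp90aa1 and -0.20 and 0.41 for Bag3 (injury in aging valves). For age in injured valves they ran between -0.49 and 0.0903 for Hsp90aa1 and -0.49 and 0.11 for Bag3, and for the average between -0.26 and 0.0275 for Hspd1. Depth did not limit these genes, whose lowest count in a library was 741. The number of mice, with 2 aging injured, limits the precision.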
